A study of Mus musculus with 2 samples.

Results

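Mapt, Map1a, Map1b, Map2, Map4, Stmn1 and Stmn2 encode proteins that bind microtubules or free tubulin, and they were taken by symbol from the mouse gene annotation, as 7 of its 37310 genes. The annotation (GENCODE vM1 on the genome build mm9) writes Mtap1a, Mtap1b, Mtap2 and Mtap4 for Map1a, Map1b, Map2 and Map4. RNA-Seq was done on whole brains of F1 hybrid mouse embryos at E17.5 (late gestation), and 1 library from each direction of a reciprocal cross was used here. BxC embryos had a C57BL/6J mother and a CastEi/J father, and CxB embryos had a CastEi/J mother and a C57BL/6J father. The animals carried no engineered allele and received no treatment, each library came from a single brain without pooling, and poly(A)+ RNA was sequenced as 36-base single-end reads. The CxB brain was male, while the sex of the deposited BxC brain was not given in the sources used here. Chromosome Y held 1852 reads in BxC and 18212 in the male CxB library. The reciprocal cross was designed to separate effects of parent of origin from effects of strain, but the aligned positions used here carry no alleles, so every value below sums both parental copies.

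The BxC library held 128944754 aligned reads and the CxB library 109719746, of which 6.47% and 6.20% crossed a splice junction. Each cross was represented by 1 library, so nothing could be tested against replicates, and cross, sex and individual cannot be told apart. All intervals are 95% intervals of counting error only, and reads copied during library amplification are not independent molecules. All 10 brain markers were present, from 11.2 to 974 RPKM (reads per kilobase of exon, scaled by library size) in BxC and from 11.5 to 840 in CxB, led by the neuronal tubulin Tubb3. Of 10 markers of other tissues, 2 were at 0 reads in BxC (Alb and Hbb-bh1) and 1 in CxB (Hbb-bh1), and their summed level was 302 RPKM in BxC and 249 in CxB, mostly the red cell gene Hbb-b1, against 1408 and 1293 for the brain markers. Their part in the results below was not tested. In whole brain, fewer cells of a type and less RNA per cell cannot be told apart.

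Microtubules are hollow polymers of tubulin that carry transport and hold the shape of axons and dendrites. Tau, the product of Mapt, together with the products of Map2 and Map4, forms a family that binds along the microtubule wall through a row of similar repeats near the C terminus. Mapt is known for axons, Map2 for dendrites and cell bodies, and Map4 for most cell types including dividing cells. Map1a and Map1b encode large unrelated proteins that are cut into a heavy and a light chain, with Map1b known for growing axons and Map1a for mature neurons. The stathmins Stmn1 and Stmn2 bind free tubulin and favour disassembly, Stmn2 being the neuronal, membrane-bound form. Fetal brain is known for tau that lacks the N-terminal inserts of exons 2 and 3 and the additional repeat of exon 10, and for a short Map2 that lacks a very large internal exon.

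The additional repeat is encoded in all 3 genes of the tau family by an exon of 93 bases that was alternative in each gene. The exons of Map2 and Map4 are shown because they are counterparts that were used to a different extent. They were read 5′ to 3′ on the + strand of mm9, at chr1:66478101-66478193 for Map2 and chr9:109975117-109975209 for Map4. Capitals mark bases that both exons share at the same place.
Map2 repeat exon: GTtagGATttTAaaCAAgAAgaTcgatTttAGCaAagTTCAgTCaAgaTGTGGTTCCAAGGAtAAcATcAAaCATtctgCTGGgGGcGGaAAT
Map4 repeat exon: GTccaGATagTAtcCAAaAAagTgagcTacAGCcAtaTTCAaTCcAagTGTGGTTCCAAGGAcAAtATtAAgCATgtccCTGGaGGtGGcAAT
Without gaps they were identical at 59 of the 93 bases (63.4%). At the 5′ splice site that follows each exon, with the last 10 bases of the exon in lower case and the first 10 of the intron in capitals, the sequences were the following.
Map2 donor: gggcggaaatGTAAGTAGAA
Map4 donor: aggtggcaatGTAAGTATAA

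A read that joins exon 9 to exon 10, exon 10 to exon 11, or exon 9 to exon 11 tells whether the repeat of Mapt was included or skipped. The 36 bases centred on the skipping junction, which held most of these reads, are shown with the upstream exon in lower case and the downstream exon in capitals.
Mapt exons 9 and 11: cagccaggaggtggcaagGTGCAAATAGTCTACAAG
Exons 2 and 3 of Mapt, which encode the N-terminal inserts, have 87 bases each and lie at chr11:104148437-104148523 and chr11:104151222-104151308. They are shown whole because almost no read entered them. At the same place they share 30 of 87 bases (34.5%).
Mapt exon 2: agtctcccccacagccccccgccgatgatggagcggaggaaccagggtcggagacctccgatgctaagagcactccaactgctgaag
Mapt exon 3: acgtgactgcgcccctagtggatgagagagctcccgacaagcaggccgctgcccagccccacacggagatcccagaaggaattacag

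Stmn2, Map1b and Mapt were the 3 most abundant members per length as listed, well above Map2, Map1a and Map4 in both libraries. Stmn1 was also listed low, but most of its coding and 3′ untranslated sequence is not unique in the genome, and its true level could lie above the listed one. Stmn2 (chr3:8509527-8561604, + strand) had 84283 reads in BxC and 74210 in CxB, or 343 and 355 RPKM, and ranked 33 and 31 of 22380 protein-coding genes. Map1b (chr13:100191419-100286557, - strand) had 487958 and 432712 reads, or 314 and 327 RPKM, at ranks 37 and 35. Mapt (chr11:104092704-104193404, + strand) had 280041 and 227603 reads, or 288 and 275 RPKM, at rank 44 in both libraries. The step from Mapt down to Map2 was 4.88-fold in BxC and 4.87-fold in CxB, the largest between neighbours in either order. It was much smaller over coding sequence, where Mapt stood at 178 RPKM in BxC and 175 in CxB, and Map2 at 101 and 91.6.

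Map2 (chr1:66221847-66489157, + strand) stood at 59.0 RPKM in BxC and 56.5 in CxB, from 125202 and 101991 reads. Map1a (chr2:121115336-121136568, + strand) had 35.9 and 35.5 RPKM, from 56374 and 47371 reads. Map4 (chr9:109833962-109986451, + strand) had 27.6 and 27.02 RPKM, from 46080 and 38360 reads. Stmn1 (chr4:134024235-134029758, + strand) had 29.8 and 23.8 RPKM, from 7379 and 5019 reads, and exchanged places with Map4, standing above it in BxC and below it in CxB. The exchange was seen only where all reads over exons were counted, under either scaling. Stmn1 was below Map4 in both libraries by alignment lines, on the sense strand and over unique windows, but over coding sequence it stood at 97.03 and 74.3 RPKM against 26.7 and 25.3 for Map4. The widest 95% counting interval relative to its level was that of Stmn1 in CxB, from 23.1 to 24.5 RPKM, and neighbours in the order did not have overlapping intervals in either library.

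**Figure D1:**
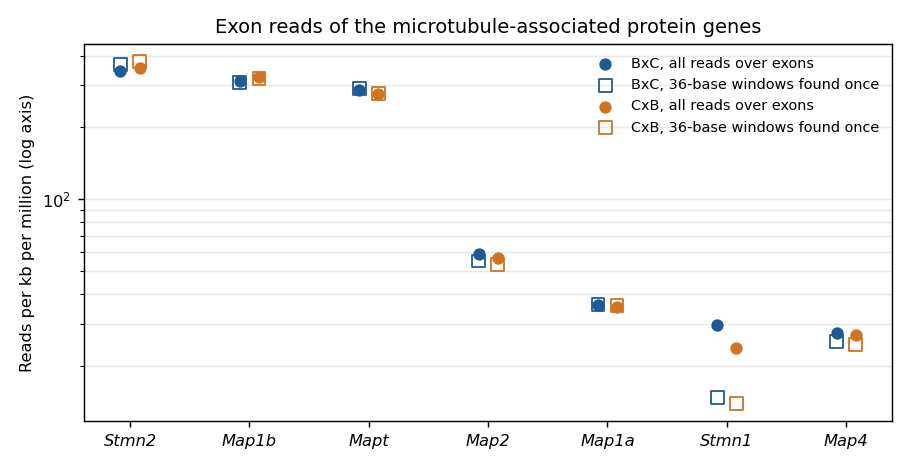
Level of each gene on a log axis, in RPKM (for the squares, reads per kilobase of unique windows), for the BxC library (blue) and the CxB library (orange), with 1 library each and no error bar. Filled circles count every read over the exons and open squares only unspliced reads in 36-base windows that occur once in the genome, so squares leave out junction reads too. Circles and squares lie close together except for Stmn1, with 29.8 against 14.8 in BxC and 23.8 against 13.9 in CxB, where unspliced reads over all windows gave 8.29 and 7.78.

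The order within the upper 3 was not the same under every way of counting. With each alignment line counted once, Map1b stood first at 161.9 RPKM in BxC and 162.1 in CxB, Stmn2 next at 144.2 and 155.3, and Mapt at 110.9 and 113.6. Reads were spread very unevenly along the transcripts. In Mapt, 400 bases of the 3′ untranslated region, beginning 3100 bases after the stop codon, held 126457 of the reads in BxC (45.2%) and 92223 in CxB (40.5%). Without them Mapt stood at 167 RPKM in BxC and 173 in CxB. In Stmn2 a single stretch of 100 bases, beginning 1100 bases after the stop codon, held 38.9% and 40.7% of the reads, while the fullest 100 bases of the last exon of Map1b held 5.66% and 6.43%. The median depth over exon bases, which such stretches hardly move, was 5.65 RPM (reads over a base, scaled by library size in the same way) in BxC and 5.94 in CxB for Map1b, 5.13 and 5.04 for Stmn2, and 3.66 and 3.76 for Mapt. By that measure Map2 stood at 0.845 and 0.848, Map1a at 0.651 and 0.665, Map4 at 0.349 and 0.337, and Stmn1 at 0.0543 and 0.0729. The upper 3 by this median were the same genes as by RPKM, and Map1b came before Stmn2. They were not the same by the median depth of internal exons included at 95% or more in both libraries. There Mapt had 15.4 RPM in BxC and 14.9 in CxB, and Map1b 11.3 and 11.6. Map2 followed with 7.73 and 6.95, above Stmn2 with 6.65 and 6.79.

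Stmn1 is the member whose level is least certain, because its coding sequence has copies elsewhere in the genome and the study's methods kept uniquely aligned reads. Reads dropped for this reason are not counted, so the listed level sets no upper limit on its mRNA. Of the 36-base windows of its exons, 55.9% occur once in the genome, against 99.5% or more for each of the other members. Within the coding sequence the share was 8.85%, and within the 3′ untranslated region 1.96%, where depth was 0.00200 RPM in BxC and 0 in CxB. A single junction (intron chr4:134026091-134026581) alone held 4756 of its 7379 reads in BxC and 2913 of 5019 in CxB, and every 36-base window across that junction also occurs unspliced in the genome. These reads were thus kept although their reference sequence is not unique, and the rule by which they were placed here is not given in the sources used here. The 36 bases centred on it are shown with the upstream exon in lower case.
Stmn1 junction with the most reads: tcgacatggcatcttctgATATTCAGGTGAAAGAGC
The same 36 bases lie unspliced at chr4:69587083-69587118 in the annotated pseudogene Gm11223, and at chr17:70742776-70742811 within the span of Dlgap1. Gm11223 itself had 13756 reads in BxC and 12429 in CxB, or 110 and 117 RPKM, several-fold the level listed for Stmn1. Reads from spliced Stmn1 mRNA and from Gm11223 cannot be told apart where the sequences are the same. Most reads on the junction lay on the - strand, 4160 of 4756 in BxC and 2444 of 2913 in CxB, and the 3 fullest alignment lines carried 43.9% and 32.5% of them. Leaving out the junctions that have full copies in the genome gave 10.5 RPKM in BxC and 9.84 in CxB, values that again leave out reads dropped elsewhere in the gene. In the same way its 192-base exon, included at 89.7% in BxC and 95% in CxB, rested on 20 informative reads in each library.

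Mapt mRNA in both brains joined exon 1 directly to exon 4 and exon 9 mostly to exon 11, so exons 2 and 3 were almost absent and exon 10 was in the minority. Inclusion is given as the mean of reads that enter and leave an exon, divided by that mean plus reads that skip it. For exon 2, 5 reads entered, 4 left and 4450 skipped in BxC, and 2 entered, 6 left and 3511 skipped in CxB, which gives inclusion of 0.101% (95% interval 0.036 to 0.262) and 0.114% (0.031 to 0.291). For exon 3, 0 reads entered, 3 left and 4454 skipped in BxC, and 1 entered, 4 left and 3516 skipped in CxB, or 0.034% and 0.071%. The libraries overlapped for both exons. With each alignment line counted once the values were higher, at 0.885% in BxC and 0.441% in CxB for exon 2 and at 0.527% and 1.09% for exon 3. Read depth over the exons, which needs no junction, was 0.251% (BxC) and 0.184% (CxB) of the median constitutive exon of Mapt for exon 2, and 0.474% and 0.503% for exon 3.

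In BxC exon 10 was included at 10.1% (95% interval 7.25 to 13.8), and the CxB library gave 7.79% (5.10 to 11.3). There 14 reads joined exon 9 to exon 10, 57 joined exon 10 to exon 11 and 317 skipped exon 10 in BxC, while the CxB reads numbered 7, 43 and 296. The difference of CxB from BxC was -2.28 percentage points (-6.75 to 2.05), within counting error. The sides of the exon did not give the same figure: from the entering junction alone inclusion was 4.23% and 2.31%, and from the leaving junction alone 15.2% and 12.7%. The depth of exon 10 was 13.3% of that of exon 11 in BxC and 10.6% in CxB, but 3.67% and 2.72% of that of exon 9. Depth itself was 102.03% (BxC) and 107% (CxB) of the constitutive median at exon 9 and 28.2% and 27.4% at exon 11. By any of these measures most Mapt reads lacked the repeat, and its length of 93 bases, like the 87 bases of exons 2 and 3, is a multiple of 3.

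The other optional exons of Mapt were also nearly unused. Exon 4A, the large exon of the tau form known from peripheral neurons, has 759 bases in its longer annotated form and had 2 entering and 0 leaving reads against 1368 skipping reads in BxC, and 1, 1 and 1146 in CxB (0.073% and 0.087%). Exon 6 stood at 0.196% and 0.111% and exon 8 at 0.262% and 0.416%. The depth of exon 6 was higher than its junctions would give, at 4.90% of the constitutive median in BxC and 3.93% in CxB. By the same measure exon 10 was lower, at 3.75% and 2.90%. The small exon 4 was skipped by few reads, and its inclusion was 98.8% and 98.4%. A junction from exon 1 straight to exon 5 had 30 reads in each library, beside 4416 and 3472 reads from exon 1 to exon 4. Exons 1, 5, 7, 9, 11 and 12 were included at 99.5% or more in both libraries. Exon 13 had 897 entering reads in BxC and 857 in CxB, but 0 leaving and 0 skipping reads. Its computed inclusion of 100% thus rested on entering reads alone.

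**Figure D2:**
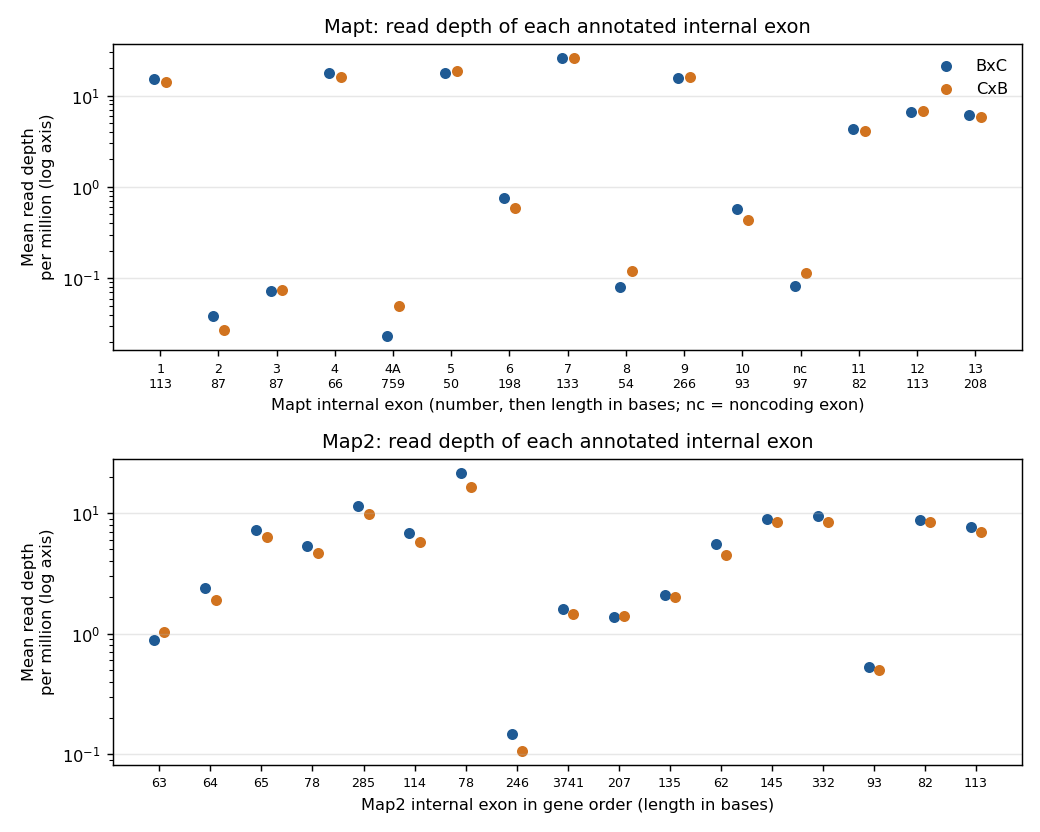
Mean read depth in RPM (reads over a base, scaled by library size), on a log axis, of every annotated internal exon of Mapt (top) and Map2 (bottom) in gene order, with BxC in blue, CxB in orange and 1 library each. Mapt exons 2, 3, 4A and 8 lie under 1% of the median constitutive exon. Exon 10 lies at 3.75% of it in BxC and 2.90% in CxB, below exon 6 at 4.90% and 3.93%. The 3741-base exon of Map2 and the next pair of exons lie at 1.38 to 2.09 RPM.

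Map2 was present both with and without its large exon, in shares that did not differ between the libraries beyond counting error. This exon has 3741 bases (chr1:66458981-66462721), is wholly coding, has a length that is a multiple of 3 and separates the long from the short forms of the protein. The 36 bases at its ends and at the junction that skips it are shown, since these reads define the measure. The upstream exon is in lower case.
Map2 into the large exon: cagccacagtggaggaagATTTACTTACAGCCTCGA
Map2 out of the large exon: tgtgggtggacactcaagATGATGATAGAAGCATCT
Map2 over the large exon: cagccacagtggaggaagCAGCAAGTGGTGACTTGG
In BxC 227 reads entered the exon, 235 left it and 155 skipped it, and in CxB 129 entered, 198 left and 106 skipped. Inclusion was thus 59.8% (95% interval 54.8 to 64.8) for BxC against 60.7% (54.6 to 66.6) for CxB, and the difference was 0.82 percentage points (-6.74 to 8.39). Read depth gave a lower figure, since the large exon had a depth of 1.59 RPM in BxC and 1.47 in CxB, or 20.6% and 21.1% of the median constitutive exon of Map2. When each alignment line was counted once, inclusion was 49.02% and 48.7%. Against the nearest constitutive exon upstream its depth was 7.31% in BxC and 8.93% in CxB, and against the nearest downstream 28.4% and 32.7%. Reads with at least 8 bases on both sides of the junction gave inclusion of 64.2% and 69.4%. These measures ran from 7.31% to 69.4%, and junction reads of both forms were present in both libraries.

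The skipping junction runs over the exons of 207 and 135 bases as well, and both were used to a similar extent as the large exon. The 207-base exon was included at 57.004% in BxC against 63.1% in CxB. For the 135-base exon inclusion was 50.4% and 55.4%. The differences were 6.14 points (-1.46 to 13.5) and 5.02 points (-3.42 to 13.2), within counting error. Reads with at least 8 bases on both sides of the junction gave 60.9% against 71.1% for the 207-base exon and 52.6% against 64.2% for the 135-base exon, past the 10 points of a call. An annotated shorter form of the 207-base exon, with 150 bases, had 0 entering reads at its own start in both libraries, so its computed 36.2% and 44.6% came only from the shared end. An annotated exon of 246 bases just before the large exon had no junction read in either library (0 of 382 and 0 of 235), which allows inclusion of up to 0.96% and 1.56%.

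The repeat exon of Map2, the counterpart of Mapt exon 10, reached 11.97% inclusion (95% interval 10.3 to 13.8) in the BxC library and 11.5% (9.67 to 13.7) in the CxB library. Here 32 reads entered, 284 left and 1162 skipped in BxC, and 25, 212 and 910 in CxB. As in Mapt, the junction that leaves the exon gave more inclusion, 19.6% and 18.9%, than the junction that enters it, 2.68% and 2.67%. The reads that entered came from 3 alignment lines in each library, and those that left from 11 in BxC and 10 in CxB. With each alignment line counted once inclusion was 8.33% in BxC and 7.60% in CxB, below the intervals given above. Reads with at least 8 bases on both sides of the junction gave 15.9% and 10.8%. The depth of the exon was 5.60% of that of its upstream neighbour in BxC and 5.89% in CxB.

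The repeat exon was mostly included in Map4, in contrast to both neuronal genes. In BxC 42 reads entered the exon, 40 left it and 16 skipped it, giving 71.9% (95% interval 58.5 to 83.0), and in CxB 35, 45 and 6 gave 87.0% (73.7 to 95.1). In each library the interval for Map4 lay wholly above those for Mapt and Map2, whereas the intervals of Mapt and Map2 overlapped. The difference between the libraries was 15.03 points (-1.07 to 29.5). Depth of the exon was 57.2% (BxC) and 50.8% (CxB) of that of its upstream neighbour, and 93.0% and 94.4% of that downstream.

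Map4 had 3 further alternative exons. The 222-base exon, all coding, was included at 82.6% in BxC and 87.8% in CxB, with a skipping junction that joins a pair of annotated splice sites no annotated transcript joins and had 34 and 19 reads. The 114-base exon (chr9:109973530-109973643) was included at 12.9% (5.74 to 23.9) and 23.5% (12.4 to 40.3), a difference of 10.6 points (-3.73 to 27.6). The 190-base exon, close to the 3′ end and not a multiple of 3, was included at 5.23% and 3.97% by reads but at 42.9% and 32.6% by alignment lines, and its depth was 110% and 99.3% of the constitutive median. A 3180-base exon annotated in 1 incomplete transcript had 0 entering and 0 leaving reads against 57 and 54 skipping reads, which allows up to 6.27% and 6.60%, and it had almost no depth (0.43% and 0.54% of the constitutive median).

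A difference in inclusion of at least 10 percentage points between libraries was called for 2 of the 51 member exons that had at least 20 informative reads in each library and both inclusion and skipping reads, namely the 93-base and 114-base exons of Map4. Over all 13959 such exons of the genome, 997 (7.14%) were called. Among exons with inclusion between 5% and 95% in at least 1 library, 2 of the 12 member exons were called, against 22.9% of 4358. Both calls rested on 62 or fewer informative reads per library, had intervals that include 0, and were lost when each alignment line was counted once (67.6% against 76.9% and 12.8% against 22.4%).

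**Figure D3:**
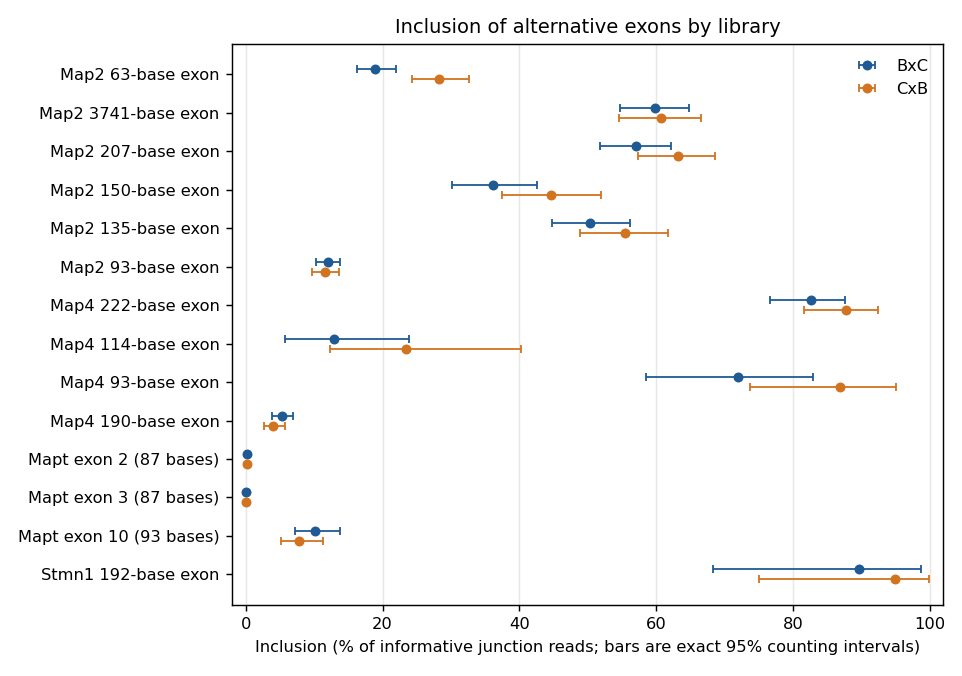
Inclusion of each alternative exon in percent of informative junction reads, with exact 95% counting intervals, for BxC (blue) and CxB (orange), 1 library each. The 93-base repeat exon is at 7.79% to 11.97% in Mapt and Map2 and at 71.9% and 87.0% in Map4. Only the 63-base exon of Map2 has intervals that do not overlap between libraries, and the share of such exons over the genome was not counted.

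The first exons also differed in use within genes, and these were singled out after their values were seen. Into the 65-base exon of Map2 (chr1:66368978-66369042), 573 of 636 reads in BxC (90.1%) and 378 of 441 in CxB (85.7%) came from the first exon that lies next to it, and the rest from an exon far upstream. At the far upstream start, an optional noncoding exon of 63 bases (chr1:66239693-66239755) had an inclusion of 18.9% (16.2 to 22.0) in BxC against 28.3% (24.2 to 32.6) in CxB, a difference of 9.37 points (4.40 to 14.4), just under the 10 points of a call. Of the exons named here, only this one had a difference beyond counting error. The share of all exons with such a difference was not counted, so the exon cannot be called unusual. The direction was not the same in every count, with 28.7% in BxC and 27.5% in CxB by alignment lines, 3.44% and 1.48% from the entering junction, and 30.1% and 43.6% from the leaving junction. In Map4, 28 of 85 reads in BxC (32.9%) and 22 of 74 in CxB (29.7%) entered the 107-base exon from an internal first exon. From its 69-base exon, 78 of 158 reads (49.4%) and 75 of 139 (54.0%) went to a short terminal exon in place of the rest of the gene. In Map1a, 17 of 26 reads (65.4%) and 34 of 44 (77.3%) entered the 83-base exon from the internal first exon.

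Map1b, Map1a and Stmn2 had no internal exon with inclusion under 95% among those with at least 20 informative reads in each library. The 3 genes nevertheless showed large differences in reads from junction to junction. In Map1b the junction that enters the 6490-base exon had 7207 reads in BxC and 7210 in CxB, while the junction that leaves it had 1831 and 1682, although almost no read skipped it (6 and 8). Reads on the sides of an exon thus differed severalfold where skipping was almost absent, a spread to be set beside the unequal sides of Mapt exon 10 and of the Map2 repeat exon. Annotated junctions took 98.8% or more of the junction reads of each member. The remaining reads joined annotated sites in new pairs, and no read of a member used a splice site outside GENCODE vM1. The reads were aligned to junctions built beforehand from another set of gene models, with up to 2 exon-skipping events, and the sets were not compared. A splice site outside those models could not be seen, and longer skips could be missed. How far the alignment set the high share of annotated junctions was not tested, and the share says little about unannotated splicing.

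The 3′ untranslated regions were covered in ways that set the genes apart and were alike in both libraries. In Mapt, which has 3906 bases after the stop codon in its longest annotated form, mean depth was 7.80 RPM in BxC and 8.21 in CxB over the first 3100 bases and rose to 178 and 160 in the next 100. Depth past the annotated end was 0.00990 and 0.0216 RPM over 500 bases. Stmn2 likewise had its fullest bin close to the end of its 1282 bases, at 77.2 and 82.8 RPM.

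Map1b and Map4 showed the opposite course. The first 500 bases after the stop codon of Map1b had a mean depth of 26.7 RPM in BxC and 28.6 in CxB, 4.06 and 3.77 times that of the last 500 of its 4345 bases. For Map4 the ratio was 5.79 and 5.54 over 2208 bases. In Map1a the fullest bin began 1000 bases after the stop codon, at 9.82 RPM in BxC and 9.34 in CxB. No bin reached 10% of the fullest one beyond 1400 bases after the stop codon, or 50.9% of the annotated length. Depth in Map1a thus rose before it fell. Its ratio of the first to the last 500 of 2748 bases, 11.8 and 10.3, compares with bases past that fall. In Map2 the first 500 bases had 1.34 and 1.37 times the depth of the last 500 of 3579 bases. In the fullest bins the strands were not alike, since 85.9% and 82.7% of reads lay on the sense strand in Mapt and 30.5% and 33.6% in Stmn2.

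**Figure D4:**
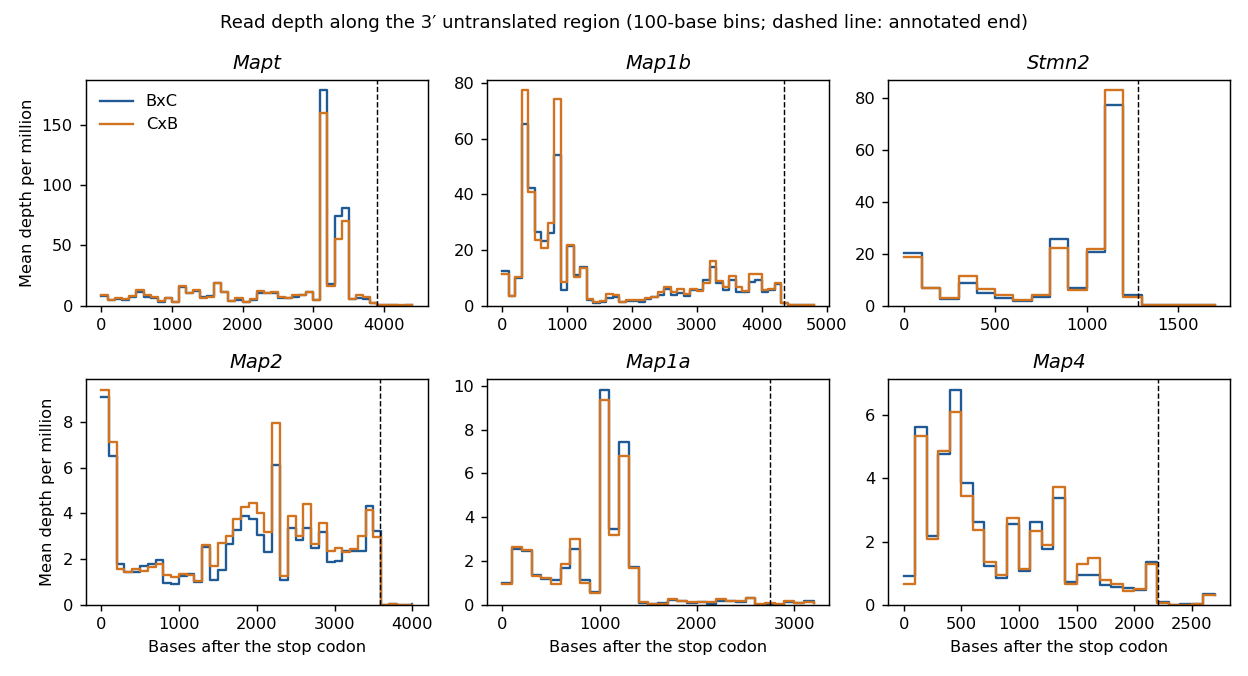
Mean read depth in RPM (reads over a base, scaled by library size) in 100-base bins along the 3′ untranslated region, from the stop codon to 500 bases past the annotated end (dashed line), for BxC (blue) and CxB (orange), 1 library each and with a separate scale for each gene. Mapt and Stmn2 have their fullest bin near the end (178 and 77.2 in BxC), Map1b and Map4 in the first 500 bases, and Map1a loses most depth by 1400 bases.

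Between the reciprocal crosses, none of the 7 members reached a log2 ratio of 0.5 in either direction. Of the 15427 genes tested, which had 100 or more reads in both libraries, 318 did (2.06%). Among the 1643 genes at least as high as the lowest member the share was smaller, with 3 called higher and 11 lower in CxB (0.852%). The log2 ratio of CxB over BxC was -0.066 for Mapt (95% interval -0.074 to -0.058), -0.018 for Map1a (-0.036 to -0.0004), 0.060 for Map1b (0.054 to 0.065), -0.063 for Map2 (-0.075 to -0.051), -0.032 for Map4 (-0.051 to -0.012) and 0.049 for Stmn2 (0.035 to 0.064). Stmn1 had the largest ratio, -0.32 (-0.38 to -0.27). The middle 90% of all genes ranged from -0.29 to 0.28 with a median of -0.0011, so 6 members lay inside that range and Stmn1 outside it. Without the Stmn1 junctions that have full copies in the genome the ratio of Stmn1 was -0.089 (-0.17 to -0.0053). Without the 400 bases near the end of Mapt the ratio of Mapt was 0.051 (0.040 to 0.061), the opposite direction. Map2, Map4 and Stmn1 were lower in CxB under every way of counting reads tried for the ratio. The direction for Mapt, Map1a, Map1b and Stmn2 turned under at least 1 of them. By the median depth over exon bases, which is not among those counts, Map4 was again lower in CxB. That median was 0.845 RPM in BxC and 0.848 in CxB for Map2, and 0.0543 and 0.0729 for Stmn1, so neither was lower in CxB.

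Per length, introns held fewer reads than exons in each member. Mapt had 2.40 RPKM over introns in BxC and 2.46 in CxB, against 288 and 275 over exons, and Map1a had 0.175 and 0.209. Stmn1 had the highest intron value, 6.05 and 6.22. As a share of all reads in the gene span, intron reads made up 27.6% of Stmn1 in BxC and 32.9% in CxB, where 2812 and 2460 intron reads outnumbered the 2594 and 2075 exon reads left without the repeated junctions. The share was 11.3% and 11.98% for Map2, 11.6% and 13.04% for Map4, and 9.35% and 9.94% for Mapt. The paper describes a library preparation that kept strand information through dUTP in the second strand. Reads nevertheless lay on both strands, with 35.8% to 44.0% of the exon reads of the members on the sense strand in BxC. The range was 39.3% to 43.9% in CxB, beside a median of 43.9% and 43.2% over protein-coding genes. Why the reads differ from the described preparation was not tested. Stmn1 was the lowest member in BxC, at 35.8%. Strand therefore could not separate Map1a from Ppip5k1, with which it shares 272 exon bases on opposite strands, or Map2 from the noncoding Gm10558, with which it shares 124. On its own strand Stmn1 shares 66 exon bases with the annotated miRNA AL669982.1, whose span held 1378 reads in BxC and 1002 in CxB. Map4 shares 3165 bases with a pseudogene of the same name, which held 57 and 62 reads.

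Other genes of the microtubule system were described by lists set by role, 70 genes in all, each with at least 100 reads in both libraries. None of the 70 reached a log2 ratio of 0.5 in either direction, beside 2.06% of all genes tested and 0.320% of those with at least 1000 reads in both libraries. Their median log2 ratio was 0.026 and 28 of 70 were below 0, beside a median of -0.0011 and 7774 of 15427 below 0 over all genes tested. Crmp1 (410 RPKM in BxC and 408 in CxB), Dpysl3 (297 and 308) and Dpysl5 (145 and 140), of the collapsin response mediator proteins that link tubulin to guidance signals in axons, led the 21 other structural and associated proteins. Crmp1 was thus listed above all 7 members. Stmn3 (169 and 169) and Stmn4 (168 and 149), the other neuronal stathmins, stood below Stmn2, and no comparison with Stmn1 is made for the reason given above.

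Dcx, which binds microtubules in migrating neurons, led the 5 genes of the doublecortin family with 68.1 RPKM in BxC and 74.5 in CxB, followed by Dclk2 (40.3 and 40.5) and Dclk1 (32.9 and 34.04). Of the 17 proteins of microtubule ends, Nav1 had 55.0 and 52.5, the dynactin subunit Dctn1 54.0 and 53.4, and Clip2 42.6 and 44.1. The 6 severing enzymes were low, led by Spast at 17.996 and 18.9, while Katnal1 stood at 4.32 and 3.599. Of the 19 genes for kinases and phosphatases that act on tau, the activators of Cdk5 were highest, Cdk5r2 at 101 and 99.99 and Cdk5r1 at 85.4 and 91.8, followed by Gsk3a at 64.0 and 66.2. The protein-coding genes whose level was nearest to that of Mapt over the 2 libraries, by the distance of log2 RPKM, were Tecr (distance 0.018), App (0.064), Fth1 (0.085), Cox4i1 (0.11) and Marcksl1 (0.14), which with 2 libraries is a likeness of level and not of pattern. App, the amyloid precursor protein gene, had 277 RPKM in BxC and 271 in CxB.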

How the data were processed

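The authors sequenced whole-brain poly(A)+ RNA of several BxC embryos of both sexes and 1 male CxB embryo on an Illumina HiSeq. Of these, 1 BxC and 1 CxB library were used here. Their reads were aligned with Novoalign to gene models, junction sequences of 100 bases and the genome. The junction sequences covered up to 2 exon-skipping events. The methods kept uniquely aligned reads for analysis, although reads on 3 Stmn1 junctions have reference sequences that are not unique. Reads were deposited as mm9 positions with a count of identical reads on each line, a meaning inferred from the values. Several lines can share a position. A second alignment with masked SNPs was also described, and which of them was deposited is not given in the sources used here. The deposited counts were summed over the exon union of GENCODE vM1 genes, divided by length and library total (128944754 and 109719746 reads). Ratios carry exact conditional binomial intervals, levels exact Poisson intervals, inclusion Clopper-Pearson intervals and differences of inclusion Newcombe intervals. The calculation of ratio and inclusion was checked on simulated independent reads, with equal expected reads entering and leaving an exon. That setting could not check the intervals for copied reads or for unequal sides of an exon. Genes needed 100 reads, and exons 20 informative reads, in each library. Copies of 36-base windows were counted in the genome. Of junction reads, 97.6% in BxC and 97.5% in CxB had GT-AG introns in mm9. In each library 1 of 22 chromosomes failed the check that positions lie within the chromosome, for a reason that was not tested.

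Members and lists were chosen with earlier results of these data known. Named were the 7 members, the 3 highest genes of each list (some items are not reported here), any list gene at a log2 ratio of 0.5, the 5 genes nearest to Mapt, and exons of 5% to 95% inclusion beside Mapt exons 2, 3 and 10 and the longest Map2 exon. Mapt exons carry their customary numbers, assigned by order along the gene. Alternatives counted each alignment line once, the sense strand, coding sequence or unique windows, and other scalings, minimums and thresholds. Python 3.11.15, NumPy 2.4.6, SciPy 1.17.1, pandas 2.3.3, Numba 0.67.0 and matplotlib 3.10.9 were used.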

Additional observations from a re-analysis of the deposited data

How the results depend on the processing

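No paired analysis was possible because each cross had 1 library, and for the same reason no library could be left out. The median level of the 7 members, 59.0 RPKM in BxC and 56.5 in CxB, was 38.9 and 38.1 with each alignment line counted once, 25.4 and 23.7 on the sense strand, 101 and 91.6 over coding sequence, 61.7 and 58.9 scaled to reads outside chromosome X and the mitochondrial chromosome, and 55.1 and 53.3 over windows that occur once in the genome, the last chosen after seeing the data, as were the Mapt and Stmn1 exclusions in the report. Stmn2, Map1b and Mapt were the highest members as listed in each of these, with Map1b first by alignment lines and over coding sequence. The count of members called was 0 in all 8 alternatives of the ratio. The count of all genes called, 318 of 15427, became 58 of 14046 by alignment lines and 190 of 13769 on the sense strand. It was 32 of 10007 with at least 1000 reads, 5293 of 24355 with at least 1 read and 21 of 15427 at a log2 ratio of 1. Of the genes called, 139 were higher and 179 lower in CxB, against 11 and 47 by alignment lines and 8 and 24 with at least 1000 reads. The member exons called, 2 of 51 beside 7.14% of all exons, changed with the measure. By alignment lines 1 of 48 was called (the 190-base exon of Map4, neither of the former), beside 5.06% of 7292. From the entering junction 1 of 46 was called, beside 7.76% of 12150, and from the leaving junction 4 of 47, beside 7.95% of 12340. With 8 bases on both sides of the junction 5 of 39 were called, beside 8.81% of 8033. These 5 were the former 2, the 207-base exon of Map2, its 150-base form, which shares its leaving reads, and the 135-base exon. With at least 100 informative reads 0 of 40 were called, beside 0.885% of 4972. By read density, computed for the named exons only and so without a share over all exons, 2 of the 14 were called. They were the 222-base and 190-base exons of Map4 and not the 93-base and 114-base exons. Density can pass 100%, as in the 222-base exon with 297% in BxC and 268% in CxB. A cut of 10 points on it is thus unlike the same cut on inclusion. The exons called over the genome, 997 of 13959, became 369 of 7292 by alignment lines and 44 of 4972 with at least 100 informative reads. The cause of these changes was not tested, beyond fewer reads or exons entering. Mapt exon 10 ranged from 4.23% to 15.2% in BxC and from 2.31% to 12.7% in CxB over the junction alternatives, and the large Map2 exon from 49.02% to 64.2% and from 48.7% to 69.4%. The 114-base exon of Map4 had only 41 informative reads in CxB.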
